A study of Mus musculus with 4 samples.

Results

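Wnt genes were read from a table that compares sorted cells of mouse molar pulp with those of incisor pulp, the soft tissue inside the tooth. The members were matched by gene symbol, from a list drawn up with earlier results of these data known. They were all Wnt, Frizzled, Sfrp and Dkk symbols with a number, the R-spondins Rspo1 to Rspo4, the receptors Lgr4 to Lgr6, and 20 further named receptors, inhibitors, transducers and targets. They came to 64 of the 24216 rows, and the authors tested 62 of them. All cells came from XLacZ4 mice, a reporter strain whose beta-galactosidase marks pericytes and vascular smooth muscle. Pulp cells took up FDG, which fluoresces once beta-galactosidase has cut it, and positive cells were sorted, so every group shares the strain, the stain and the sort. There were 2 libraries of molar and 2 of incisor, with no age, sex or treatment given, and whether separate animals gave the 2 libraries of each tooth is not stated in the labels. The protocol printed for the incisor libraries names molars only, while their title, source and tissue labels name the incisor, which was followed here.

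Every FPKM (fragments per kilobase of transcript and per depth, so that levels of different genes can be set side by side), fold and q below is the authors' value from the authors' deposited table, which holds 1 combined value per tissue. No SD or n can be given, the depth of the libraries is unknown, and a gene is named as called where the authors' q lay under 0.05. With 1 value per tissue, sorting and preparation cannot be told apart from the tooth of origin. Nor can fewer cells of a type be told apart from less RNA per cell.

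Wnt proteins are secreted lipid-bearing ligands that bind Frizzled receptors together with Lrp5 or Lrp6, which stops the breakdown of beta-catenin and lets it act with TCF/LEF factors in the nucleus. R-spondins and their Lgr receptors raise the response by removing the ligases Znrf3 and Rnf43, which otherwise clear Frizzled from the surface, while Sfrp, Wif1 and Dkk proteins restrain it from outside the cell. In teeth the pathway is known for its part in tooth initiation, in epithelial signalling centres and in the differentiation of the cells that make dentin. The mouse incisor grows throughout life, and the molar does not.

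All 7 called members, of 62 tested, were higher in incisor. They were the secreted binder Sfrp2 (24.9-fold), the Lrp-binding inhibitor Dkk2 (9.69-fold), the Frizzled-clearing ligase Znrf3 (4.91-fold), the R-spondin receptor Lgr4 (4.39-fold), the transcription factor Tcf7 (4.29-fold), the co-receptor Lrp6 (2.94-fold) and the secreted binder Sfrp1 (2.40-fold). In the other direction no member was called by the authors' test, whose tool is not named in the sources used here, and at an unadjusted p under 0.05 there were 12 incisor-higher members and 1 molar-higher member, Wnt4, beside 9.06% and 17.9% of all tested rows. At q under 0.05, 4.28% of tested rows were called higher in incisor and 11.9% higher in molar. Over tested rows with at least 1 FPKM in either tissue the shares were 5.66% and 16.1%. The members called thus lay in the direction in which fewer of all rows were called.

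The call depended on the threshold for some members and not for others. At q under 0.01, Sfrp2, Dkk2 and Lgr4 were called, 3 of the 62 tested members against 2.27% of all tested rows higher in incisor. At q under 0.10, Fzd1 and Tcf7l1 joined the 7, which makes 9 of the 62 against 6.31% of rows. Adjusting the deposited p over rows at 1 FPKM or more gave 8 of the 43 members at that level, with Fzd1 added, against 6.52%. With a further demand of a 4-fold difference on the scale of FPKM plus 1, Sfrp2 and Dkk2 were left. That is 2 of the 62, too few to set apart from the 1.68% of all tested rows. Just inside the threshold lay Sfrp1 with q = 0.0472, and just outside it Fzd1 with q = 0.0629.

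**Figure D1:**
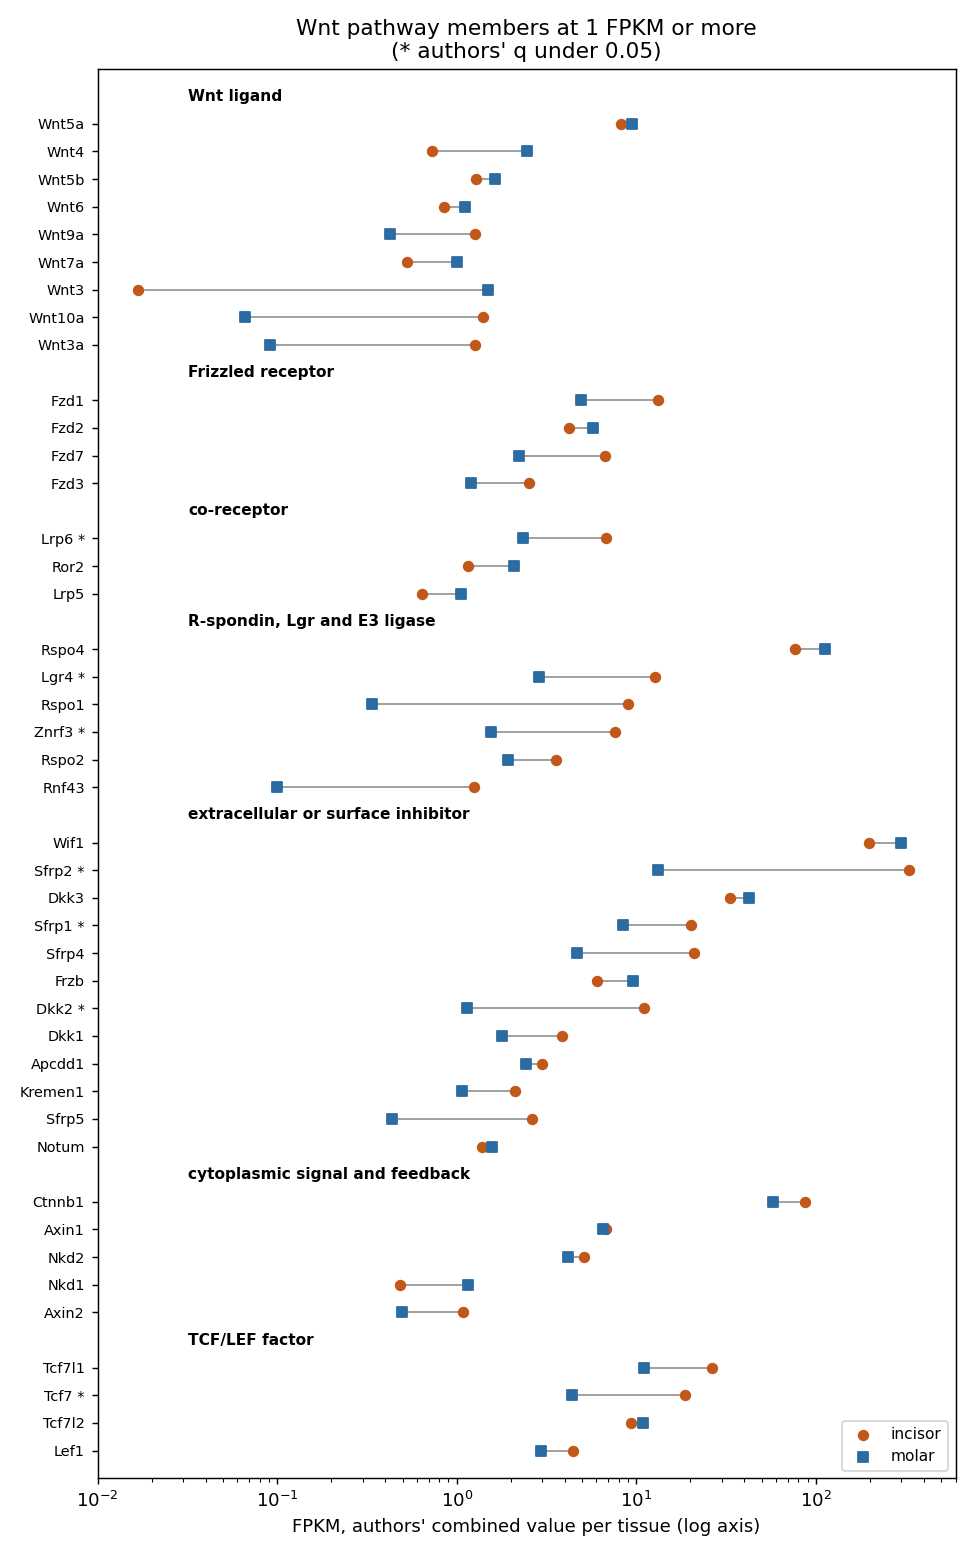
Authors' FPKM of the 43 members with at least 1 FPKM in either tissue, by class, on a log axis; circles are incisor, squares molar, and an asterisk marks q under 0.05. Sfrp2 spans 329.8 in incisor to 13.2 in molar, while Wif1 lies at 197 and 298 and Rspo4 at 76.9 and 112.

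Of the 64 members, 43 reached 1 FPKM in at least 1 tissue. Their median difference, log2 of molar over incisor FPKM after adding 1 to each, was -0.59, beside 0.14 for all 13200 rows at that level. Among them 27 had the lower value in molar and 16 the higher, while 45.5% of all such rows had the lower value in molar. The 21 members under 1 FPKM leaned the other way, 5 lower in molar and 16 higher. All 64 thus divided 32 to 32, beside 31.03% of all 24216 rows with the lower value in molar and 56.9% with the higher. Low rows of the whole table leaned to molar too, with 31.3% of all rows listed at 0 in incisor and 13.2% in molar. The lean of the low members is therefore not particular to them. Without a minimum level the median difference of the members was -0.017. The division of the 43 was 36 to 7 when the FPKM of both tissues were scaled to equal totals and 24 to 19 with equal upper quartiles.

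**Figure D2:**
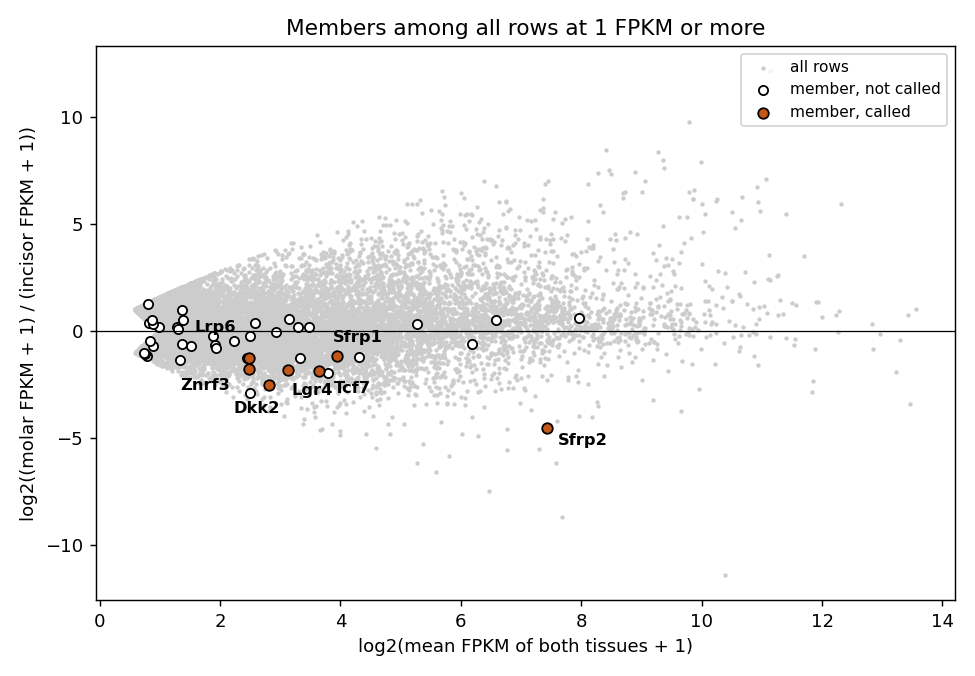
Difference between tissues, log2((molar FPKM + 1) / (incisor FPKM + 1)), against the log2 mean level for all 13200 rows at 1 FPKM or more (grey), members not called (open) and members called (filled). All 7 filled points lie below 0, with Sfrp2 farthest down at -4.54 and Sfrp1 nearest to 0 at -1.17.

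The Wnt ligands were low in both tissues, and none of the 17 tested was called. Wnt5a, which signals mainly without beta-catenin, led them with 8.22 FPKM in incisor and 9.43 in molar. It made up 48.1% of the summed ligand FPKM in incisor and 47.6% in molar, a nearly equal part. The molar share is the less certain, because every other ligand in molar lay under 3.78 FPKM, a background level explained below. The 19 ligands summed to 17.1 FPKM in incisor and 19.8 in molar, against 632 and 386 for the 13 inhibitors.

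The other ligands at 1 FPKM or more divided between the tissues, each with q above 0.05 in the authors' deposited table. Wnt4 stood at 0.725 in incisor and 2.45 in molar (q = 0.183). Wnt5b stood at 1.28 and 1.63, Wnt6 at 0.848 and 1.11, and Wnt7a at 0.527 and 1.01. Wnt6 and Wnt10a are ligands known from dental epithelium, and Wnt10a is also made by odontoblasts. Wnt10a stood at 1.39 in incisor and 0.0661 in molar (q = 0.347), and Wnt3a, a strong activator of beta-catenin, at 1.27 and 0.0917 (q = 0.338). Wnt9a stood at 1.27 in incisor and 0.423 in molar (q = 0.244). Wnt3 had the largest finite fold of all members, 88.3-fold, from 0.0168 in incisor to 1.49 in molar, and was not called (q = 0.271).

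Beneath that level lay 10 ligands. Wnt1, Wnt7b, Wnt8a, Wnt8b, Wnt9b and Wnt16 were listed at 0 in incisor, with molar values between 0.0786 for Wnt16 and 0.259 for Wnt8a, and the authors left Wnt8b and Wnt16 untested. Wnt2, Wnt2b, Wnt10b and Wnt11 were above 0 in both tissues, and Wnt11 had the highest value of these, 0.932 in incisor against 0.151 in molar. Silence cannot be read from a listed 0. Low molar values need the same care. Of 1486 rows for olfactory, vomeronasal and taste receptors, genes with no known use in pulp, the 99th percentile was 3.78 FPKM in molar and 0.147 in incisor. In molar 16 of the 64 members exceeded that level, and Wnt5a was the single ligand among them. In incisor 53 members exceeded theirs. Of the 7 called members, Lrp6, Lgr4, Znrf3 and Dkk2, or 4, lay under that level in molar and none under it in incisor, so their folds and ratios rest on molar values that are hard to tell from background.

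Among Frizzled receptors, 4 of 10 reached 1 FPKM and none was called. Fzd1 was the most abundant in incisor, at 13.1 FPKM against 4.94 in molar (q = 0.0629). Fzd7 stood at 6.69 and 2.23 (q = 0.123), and Fzd3 at 2.53 and 1.20 (q = 0.159). Fzd2 was the most abundant in molar, at 5.78 against 4.20 in incisor (q = 0.373). The leading receptor thus differed in the authors' deposited table, with Fzd1 making up 45.6% of the summed Frizzled FPKM in incisor and 28.5% in molar, and Fzd2 14.5% and 33.4%. These shares do not depend on how the tissues were scaled to each other, and they carry no test. In molar Fzd1 and Fzd2 lay close together. They alone exceeded the 3.78 FPKM of the chemoreceptor rows there, so the molar shares are the less certain. The other 6 (Fzd4, Fzd5, Fzd6, Fzd8, Fzd9 and Fzd10) ranged from 0.135 to 0.935 FPKM.

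Lrp6, the co-receptor that passes the Wnt signal to the beta-catenin branch (chromosome 6, 134446478 to 134566913), stood at 6.83 FPKM in incisor and 2.33 in molar. It was called higher in incisor, 2.94-fold with q = 0.0294. Its relative Lrp5 stood at 0.644 and 1.05 and was not called (q = 0.446). Lrp6 was 10.6 times Lrp5 in incisor, and in molar both lay under the 3.78 FPKM of the chemoreceptor rows. The Wnt5a receptor Ror2 stood at 1.16 and 2.07 (q = 0.326) and Ror1 at 0.988 and 0.499 (q = 0.423). Whether Lrp6 differed from Lrp5 in its response to the tissue was not tested.

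The R-spondin branch of 9 members held both an abundant ligand with no call and 2 members called higher in incisor. Of all tested rows, 4.28% were called in that direction. Rspo4, best known for its part in nail formation, was by far the highest, at 76.9 FPKM in incisor against 112 in molar, without a call (q = 0.258). It ranked above 95.9% of all rows in incisor and above 95.3% in molar. Rspo1 stood at 8.99 against 0.339 in molar, a 26.6-fold difference without a call (q = 0.384). Rspo2 stood at 3.59 and 1.92 (q = 0.333), and Rspo3 at 0.284 and 0.556 (q = 0.371).

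Lgr4, the R-spondin receptor (chromosome 2, 109917647 to 110014257), stood at 12.7 FPKM in incisor and 2.89 in molar and was called higher in incisor, 4.39-fold with q = 0.00326. Its relatives were scarce in the authors' deposited table, with Lgr5, a stem cell marker in several epithelia, at 0.165 and 0.0397 and Lgr6 at 0.172 and 0.425. Rspo4 was 6.07 times Lgr4 in incisor and 38.8 times in molar, where Lgr4 lay under the chemoreceptor level. Znrf3, the ligase that removes Frizzled (chromosome 11, 5276329 to 5444847), stood at 7.63 and 1.55 and was called higher in incisor, 4.91-fold with q = 0.0218. Its partner Rnf43 stood at 1.25 and 0.10 and was not called (q = 0.284). Receptor and ligase, which act against each other, were thus both called in the same direction.

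The secreted and surface inhibitors carried the highest levels of any class. Of the 13, 3 were called, all higher in incisor, beside 4.28% of all tested rows. Sfrp2 (chromosome 3, 83766321 to 83774314) stood at 329.8 FPKM in incisor against 13.2 in molar. It was called with the smallest q in the table, 0.000664, which 1414 called rows share, so it does not rank them. Dkk2 (chromosome 3, 132085292 to 132180304) fell from 11.0 FPKM in incisor to 1.14 in molar, 9.69-fold with q = 0.00508. Sfrp1 (chromosome 8, 23411502 to 23449632) stood at 20.3 and 8.46, 2.40-fold higher in incisor with q = 0.0472.

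Sfrp2 led the inhibitors in incisor, and Wif1, another secreted Wnt binder, led them in molar. In molar Dkk3, at 42.3 FPKM, also stood above Sfrp2. Together Sfrp2 and Wif1 made up 83.5% of the summed inhibitor FPKM in incisor and 80.7% in molar. Within that sum Sfrp2 held 52.2% in incisor and 3.43% in molar, while Wif1 held 31.3% and 77.3%. Sfrp2 was 1.67 times Wif1 in incisor, and Wif1 was 22.5 times Sfrp2 in molar. These ratios within a tissue do not move with library scaling. Sfrp2 was the 259th highest row of the table in incisor and the 4075th in molar, whereas Wif1 was the 429th and the 470th. Wif1 itself was not called, at 197 and 298 (q = 0.280), and its log2 fold of 0.59 became -0.0013 with equal FPKM totals. Of the Sfrp2 transcript, 14.7% of 31-base words also occur in transcripts of other genes in GENCODE M21, against 2.23% for Dkk2. In this respect alone the Sfrp2 level is the less certain, since Dkk2 lay under the chemoreceptor level in molar and Sfrp2 above it.

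**Figure D3:**
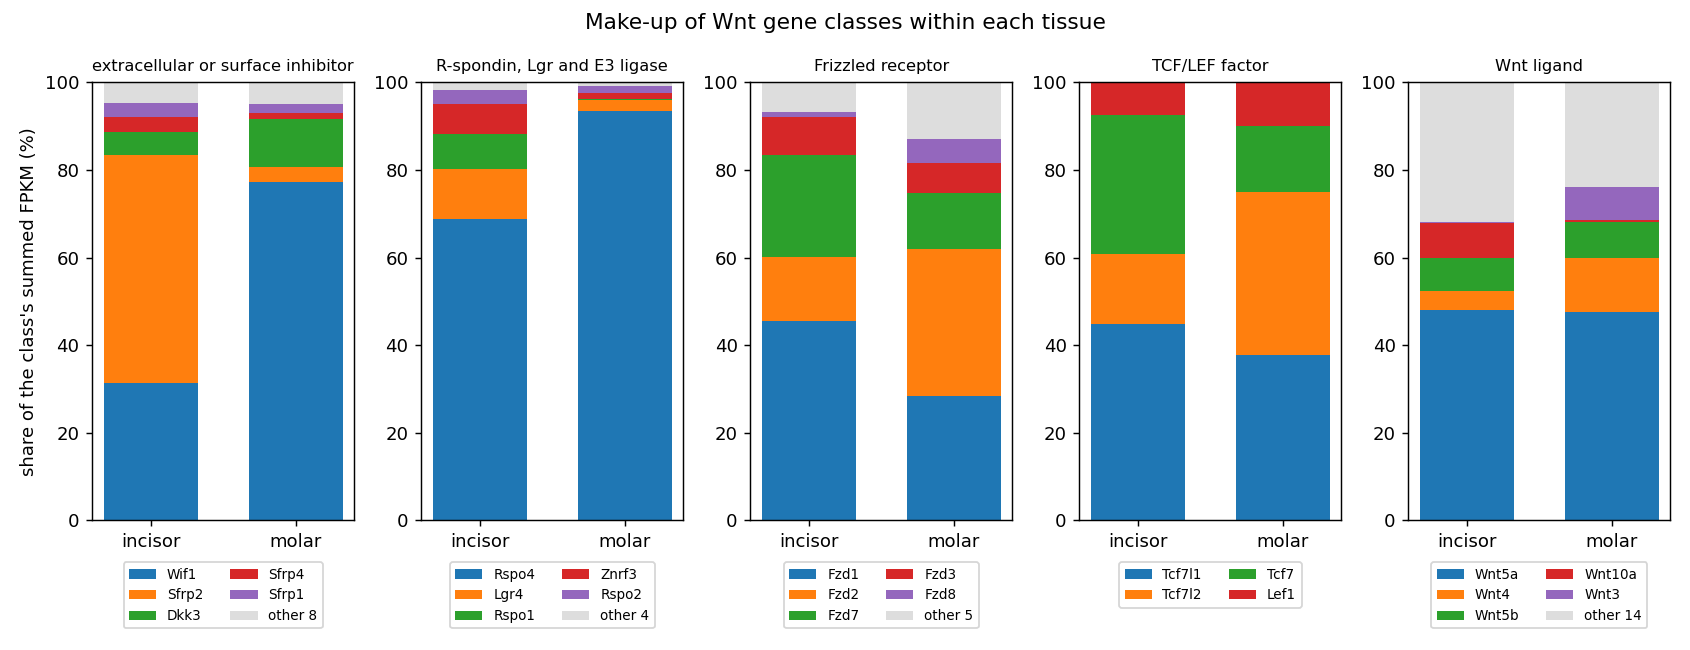
Share of each class's summed FPKM held by its leading members, in incisor and molar, for 5 classes; the grey part pools the remaining members. Sfrp2 takes 52.2% of the inhibitor sum in incisor and 3.43% in molar, and Rspo4 takes 68.9% and 93.5% of the R-spondin, Lgr and ligase sum.

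The remaining inhibitors were not called in the authors' deposited table. Sfrp4 stood at 20.9 FPKM in incisor and 4.70 in molar, a 4.45-fold difference with q = 0.106, and Sfrp5 at 2.64 and 0.435 (q = 0.372). Frzb, the Sfrp relative first known from cartilage, stood at 6.07 and 9.61 (q = 0.252), so the Sfrp-type binders did not all lie on 1 side. Dkk3, a divergent Dkk protein, stood at 33.2 and 42.3 (q = 0.399) and Dkk1 at 3.86 and 1.78 (q = 0.252). Dkk4 was listed at 0 in incisor and at 0.721 in molar. Kremen1, the receptor through which Dkk proteins draw Lrp6 from the surface, stood at 2.12 and 1.07 (q = 0.390). The membrane inhibitor Apcdd1 stood at 2.97 and 2.45, and Notum, an enzyme that strips the lipid from Wnt proteins, at 1.38 and 1.58. Notum shares 34.1% of its words with other transcripts and is uncertain.

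Beta-catenin itself, Ctnnb1, stood at 86.7 FPKM in incisor against 57.5 in molar, without a call (q = 0.252). It shares 19.5% of its 31-base words with other transcripts, more than Sfrp2, and its level is uncertain. Axin1, the scaffold of the complex that destroys it, stood at 6.74 and 6.54 (q = 0.901), the ratio nearest to 1 among the 43 members at 1 FPKM or more. Axin2, the scaffold that beta-catenin induces, stood at 1.08 and 0.493 (q = 0.297). The Dishevelled inhibitors Nkd1 and Nkd2 stood at 0.485 and 1.15 (q = 0.252) and at 5.11 and 4.17 (q = 0.512). None of these 5 was called.

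Of the TCF/LEF factors, Tcf7 was called higher in incisor (chromosome 11, 52252283 to 52283014), at 18.7 FPKM against 4.36, 4.29-fold with q = 0.0350. Tcf7l1, known mainly as a repressor, was the highest in both tissues, at 26.5 and 11.1, and was not called (q = 0.0844). Tcf7l2 stood at 9.40 and 10.9 (q = 0.565), and Lef1 at 4.43 and 2.95 (q = 0.412), though Lef1 shares 34.3% of its words with other transcripts. Tcf7 was 1.99 times Tcf7l2 in incisor, and Tcf7l2 was 2.49 times Tcf7 in molar. The 4 factors summed to 59.1 FPKM in incisor and 29.3 in molar in the authors' deposited table.

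Of the members, 9 are widely reported as feedback targets that beta-catenin induces. Among them Znrf3 and Tcf7 were called higher in incisor and none in molar, beside 4.28% and 11.9% of all tested rows. The other 7 (Axin2, Lef1, Nkd1, Notum, Rnf43, Lgr5 and Apcdd1) were not called in either direction. On the log2 scale after adding 1, the targets' median difference was -0.47 over the 8 at 1 FPKM or more. All rows at that level had a median of 0.14. Of the 8, 6 were lower in molar, with Nkd1 and Notum the exceptions, beside 45.5% of all such rows. In molar Tcf7 was the only target of the 9 above the 3.78 FPKM of the chemoreceptor rows. Axin2, the target most often read as a gauge of the pathway, was low in both tissues.

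The bases before the RNA start of Sfrp2, Dkk2 and Lgr4, the called members with the smallest q, are shown. They are the upstream part of the stretch read for TCF/LEF letters, which also took in 50 bases after the start, not shown. Each is the 250 bases upstream from RefSeq on GRCm38.p6, plus strand, at chr3:83766071-83766320, chr3:132085042-132085291 and chr2:109917397-109917646. Capitals would mark CTTTGAT or its reverse complement, the core of a TCF/LEF site, and do mark TATAAA, the core of a TATA box, on the gene's own strand.
Sfrp2: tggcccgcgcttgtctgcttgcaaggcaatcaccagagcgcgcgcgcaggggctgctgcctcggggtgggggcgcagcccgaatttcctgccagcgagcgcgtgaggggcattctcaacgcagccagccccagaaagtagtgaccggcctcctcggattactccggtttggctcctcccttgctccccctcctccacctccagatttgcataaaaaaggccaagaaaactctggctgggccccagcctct
Dkk2: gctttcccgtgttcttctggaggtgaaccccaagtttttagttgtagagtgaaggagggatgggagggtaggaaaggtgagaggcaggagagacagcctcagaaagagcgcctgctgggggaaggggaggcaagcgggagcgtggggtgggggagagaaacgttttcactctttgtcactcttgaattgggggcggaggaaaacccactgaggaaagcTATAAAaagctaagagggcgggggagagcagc
Lgr4: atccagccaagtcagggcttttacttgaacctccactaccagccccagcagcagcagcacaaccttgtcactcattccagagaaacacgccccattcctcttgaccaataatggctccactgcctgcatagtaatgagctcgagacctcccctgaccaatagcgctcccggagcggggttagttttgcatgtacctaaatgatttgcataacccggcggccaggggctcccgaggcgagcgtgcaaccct

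RefSeq promoter windows, from 250 bases before to 50 after the start, were found for 42 of the 64 members, 52 windows in all. CTTTGAT on either strand lay in 2 of them (3.85%), beside 3.73% of all 32851 windows, and in none of the 5 windows of called members (Sfrp2, Dkk2, Lgr4 and Tcf7). The matches lay before Wnt11 (chr7:98835041-98835087, plus strand) and before an inner start of Wnt5b (chr6:119449431-119449477, minus strand), shown with the 7 letters in capitals because they are the only such stretches in these 52 windows. Sfrp1, Znrf3 and Lrp6 were not searched. The absence says only that these letters are not in the windows read. TATAAA within 50 bases before the start was found for Dkk2, 32 bases before it, and for Wnt11, 29 bases before it, or 3.85% of member windows and 2.63% of all.
Wnt11: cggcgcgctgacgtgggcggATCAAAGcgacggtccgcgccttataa
Wnt5b: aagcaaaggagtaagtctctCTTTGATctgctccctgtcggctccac

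Fold and call did not run in parallel among the members. Rspo1 and Sfrp2 had similar folds, 26.6 and 24.9, but had test statistics of -2.51 and -7.16 and q values of 0.384 and 0.000664 in the authors' deposited table. Of the 55 members tested and not called, 12 had a difference of at least 4-fold with both values above 0, 9 of them higher in incisor and 3 in molar. Of these 12, Sfrp4 and Rspo1 exceeded 5 FPKM in a tissue. A call is therefore absent for members such as Wnt10a, Wnt3a, Rnf43 and Rspo1 without showing that their levels were alike.

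**Figure D4:**
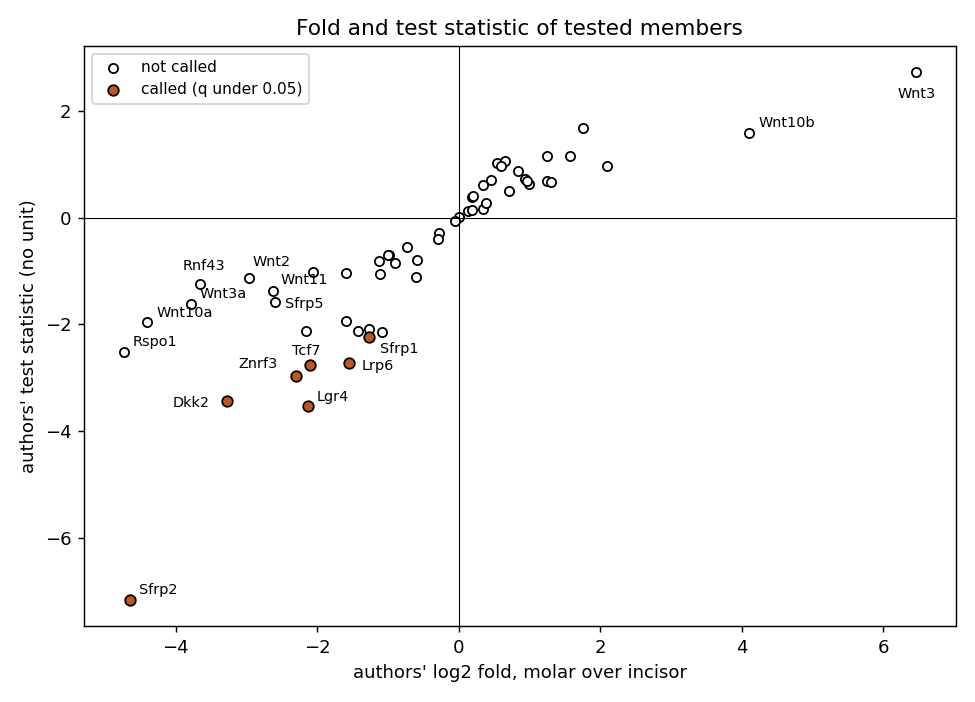
Authors' test statistic (no unit) against the authors' log2 fold, molar over incisor, for tested members above 0 in both tissues; filled points were called. Rspo1 and Sfrp2 have log2 folds of -4.73 and -4.64 but statistics of -2.51 and -7.16.

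Of 59 further pathway genes, the authors tested 58 and called 3 higher in incisor and 3 higher in molar. That is 5.17% in each direction, near the 4.28% of all tested rows in incisor and under the 11.9% in molar, so the count does not set these genes apart. The median difference of the 49 at 1 FPKM or more was -0.03. Outside the cell, Sostdc1, an inhibitor of Wnt and BMP signals that shapes tooth number and cusps, stood at 228 FPKM in incisor and 35.3 in molar, 6.46-fold with q = 0.000664. Tspan12, a partner of Fzd4 in the response to Norrin, stood at 14.8 and 1.71 (q = 0.0136), while Fzd4 was at 0.149 and 0.297. Inside the cell, the kinase Gsk3b, which marks beta-catenin for destruction, stood at 25.6 and 3.70, 6.91-fold higher in incisor with q = 0.000664. Its relative Gsk3a stood at 4.38 and 8.83 (q = 0.248). In molar Tspan12 and Gsk3b lay under the 3.78 FPKM of the chemoreceptor rows, so their differences rest on molar values hard to tell from background.

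The 3 called higher in molar work in the nucleus or at the surface. The co-repressors Tle2 (17.1 in molar and 3.76 in incisor, q = 0.00124) and Ctbp1 (16.8 and 3.15, q = 0.00326) can hold TCF targets silent. Ptk7, a planar polarity receptor, stood at 9.28 in molar and 2.77 in incisor (q = 0.0157). For Wnt release, the carrier Wls stood at 76.5 in incisor and 46.7 in molar (q = 0.230) and the acyltransferase Porcn at 3.63 and 10.3 (q = 0.0723). The 7 other reported targets held no call, with Myc at 48.6 and 19.1 (q = 0.0606) and Ccnd1 at 29.3 and 34.1 (q = 0.535).

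**Figure D5:**
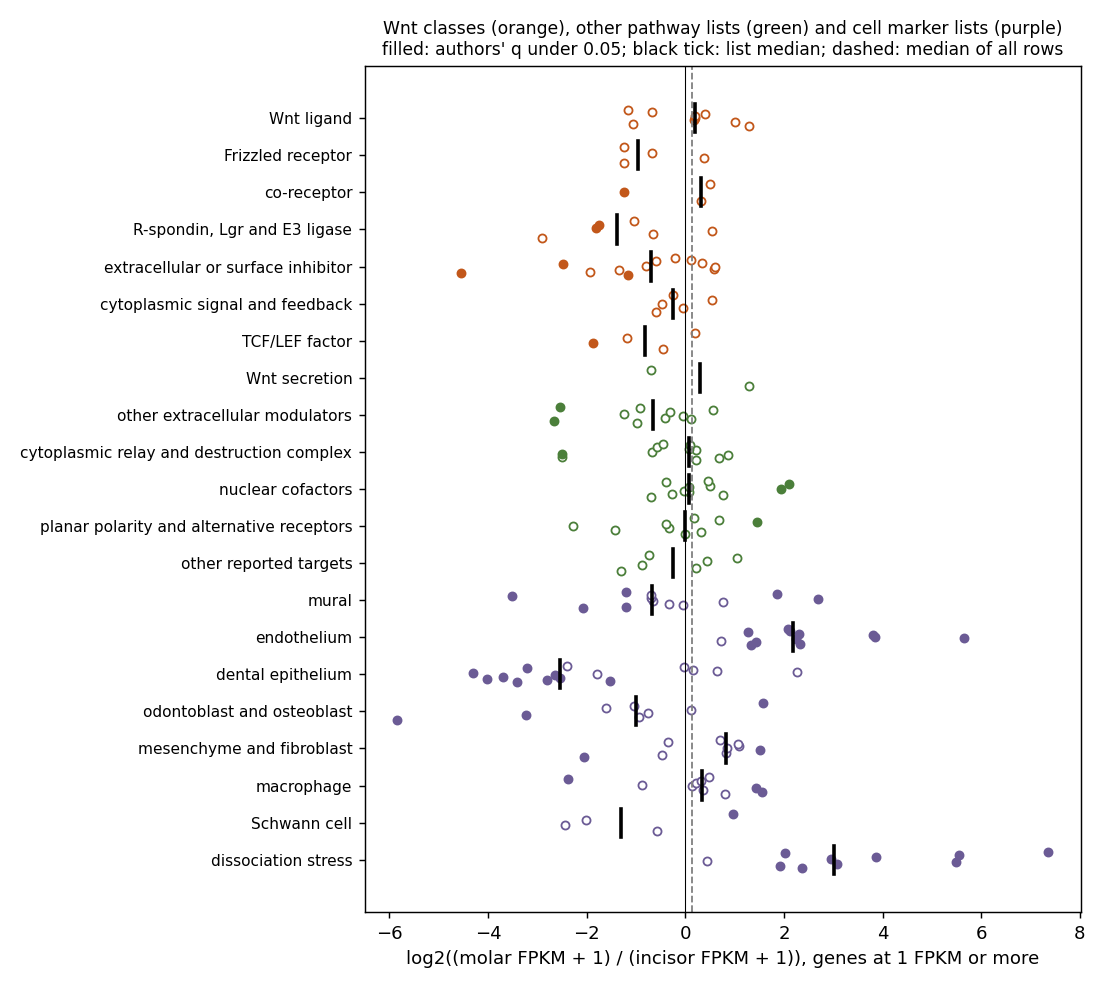
Difference between tissues on the log2 scale after adding 1 to each FPKM, for genes at 1 FPKM or more in the Wnt classes (orange), other pathway lists (green) and cell marker lists (purple); filled points were called, black ticks are list medians and the dashed line is the median of all rows, 0.14. Filled orange points lie at negative values in every class that has them, and the dental epithelium median lies at -2.54.

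Markers of some other cell types also differed between the tissues, and their part in the Wnt values was not tested. Beside the counts below, 4.28% of all tested rows were called higher in incisor and 11.9% higher in molar. The macrophage, fibroblast and Schwann cell lists, with 1 or 2 calls in a direction, are too small to set apart from these shares. Of 15 dental epithelium markers, 9 were called higher in incisor and none in molar. They summed to 23539 FPKM in incisor and 2647 in molar, of which Amelx, an enamel matrix protein, gave 20642 and 1937, and none was at 0. The 12 mural markers were chosen for the pericytes and vascular smooth muscle that the reporter marks. All were above 0 in both tissues, with 4 called higher in incisor and 2 in molar. Their sums were 917 and 364, with Rgs5 at 537 and 127. In molar Abcc9 (2.40), Cspg4 (2.86), Des (3.17) and Myh11 (0.804) lay under the 3.78 FPKM of the chemoreceptor rows. In incisor Des, at 0.155, lay just above the 0.147 of those rows. The mural sums were below the macrophage sums in both tissues. Whether mural cells made up most of the sorted cells was not tested. Endothelial markers were higher in molar, 11 of 12 called, with sums of 21.7 and 306 and Cldn5 listed at 0 in incisor. Also called higher in molar were 9 of 10 genes of the response to tissue dissociation (sums of 477 and 5775). Of 10 odontoblast and osteoblast markers, 2 were called higher in incisor and 1 in molar, with sums of 561 and 358 and Mepe at 0 in incisor. Dspp, called higher in incisor, stood at 109 and 0.921, and Alpl, called higher in molar, at 61.1 and 183. Apart from Cldn5 and Mepe no marker was at 0 in either tissue. Among 9 mesenchymal and fibroblast markers, Pdgfra was called higher in incisor and Dcn higher in molar (sums of 2220 and 4138). The 10 macrophage markers summed to 5448 and 8146, with 1 called higher in incisor and 2 in molar, and the 6 Schwann cell markers to 24.7 and 5.70, with 1 of 5 tested called higher in molar.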

How the data were processed

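RNA from FDG-sorted pulp cells of 2 molar and 2 incisor libraries had been reduced by the authors to 1 row per gene. Per the file headers, the deposited table gives, per gene, FPKM in each tissue, log2 fold, p-value, q-value and a score used as test statistic. HISAT2, edgeR, Trim Galore and the build mm10 are listed in the submitters' processing notes. For the table itself, the sources used here do not name the tool, scaling or annotation. Here the deposited log2 fold equals log2 of molar over incisor FPKM without a pseudocount, and the deposited q equals a Benjamini-Hochberg adjustment of p over the 18770 tested rows. The authors' mark of significance reached q = 0.0600. Values per library were not analysed here, so no test of samples was made.

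Members, classes and lists were chosen with earlier results of these data known. Named were all called members and all others at 1 FPKM or more. Of the further pathway genes, those called and some of the most abundant were named, with relatives of called genes added after their values were seen. Of the cell marker lists only some genes were named, and many called markers were not. Promoter letters came from RefSeq; the search for TATAAA was added after the sequences were seen. Shared 31-base words were counted in the longest coding transcript. No member lay in a joined row; rows of Wnt5b and Tcf7l1, among others, span a locus shared with another row. Counting steps were tested on simulated data. Python 3.11.15, pandas 2.3.3 and scipy 1.17.1 were used.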

Additional observations from a re-analysis of the deposited data

How the results depend on the processing

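Thresholds moved the counts most. Called members higher in incisor numbered 7, or 3 at q under 0.01 and 2 with a 4-fold minimum; feedback targets went from 2 to 0 under both. Other pathway genes higher in incisor went from 3 to 5 at q under 0.10 or with adjustment over rows at 1 FPKM or more, and those higher in molar from 3 to 1 with the 4-fold minimum. No member was called higher in molar under any of these settings. The median difference of all members, -0.59, was -1.18 with a minimum of 5 FPKM, -0.017 with no minimum, -0.23 with a pseudocount of 5 and -0.87 with one of 0.1. The ligand median of 0.19 became -0.13 with equal totals. The Frizzled median of -0.97 became 0.018 with no minimum, and the co-receptor median of 0.32 became -0.043 with no minimum and -1.24 with 5 FPKM. The R-spondin, Lgr and ligase median of -1.40 was -2.16 and -0.63 with pseudocounts of 0.1 and 5, and -0.65 with no minimum. With equal totals the log2 folds of 9 uncalled members turned negative: Dkk3 -0.25, Fzd2 -0.13, Notum -0.40, Rspo4 -0.054, Tcf7l2 -0.39, Wif1 -0.0013, Wnt5a -0.40, Wnt5b -0.25 and Wnt6 -0.20. With equal upper quartiles Apcdd1 (0.21), Axin1 (0.45) and Nkd2 (0.20) turned positive. Counting CTTTGAA too, 5.77% of member windows held a match, and 8.65% of all windows. The total FPKM of molar was 1.51 times that of incisor, a log2 shift of 0.60, and upper quartiles gave -0.49. Medians are counted as moved beyond 1.5-fold. No paired analysis was possible because the table holds 1 value per tissue, and for the same reason no library could be left out.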

Other observations

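Some members are close neighbours on a chromosome. Wnt6 and Wnt10a lie 6.70 kb apart on chromosome 1, with Wnt6 at 0.848 FPKM in incisor and 1.11 in molar and Wnt10a at 1.39 and 0.0661. Wnt3a and Wnt9a lie 16.2 kb apart on chromosome 11, at 1.27 and 0.0917 and at 1.27 and 0.423. Wnt9b and Wnt3 lie 24.4 kb apart on the same chromosome, listed at 0 and 0.190 and at 0.0168 and 1.49. Wnt10b and Wnt1 lie 11.7 kb apart on chromosome 15, at 0.0348 and 0.599 and listed at 0 and 0.130. None of these 8 ligands was called in the authors' deposited table. Kremen1 and Znrf3 lie 14.7 kb apart on chromosome 11, with Kremen1 not called and Znrf3 called higher in incisor.

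The deposited p did not follow the deposited test statistic in a single line. Among the 11 members with a statistic between 1.9 and 2.8 in size, p ran from 0.0041 for Lrp6 (statistic -2.73) to 0.251 for Rspo1 (-2.51). Between them lay Wnt3, whose statistic was 2.72 and whose deposited p was 0.141. Rspo1, Wnt3 and Wnt10a had a value under 0.4 FPKM in 1 tissue.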
